A study of Mus musculus with 12 samples.

Results

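The BRD3 regions described here were called in untreated RAW264.7 cells and again after RANKL, and were called neither after I-BET alone nor after RANKL plus I-BET. There were 561 such regions among 3668 untreated BRD3 regions (15.3%), and among the 2766 of those that had a RANKL counterpart (20.3%). They are called I-BET-absent regions below. A region was taken as present in a list when it overlapped a region of that list by at least 1 bp. They were selected on presence in the 4 BRD3 lists, so the missing I-BET calls are their definition and not a result.

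RAW264.7 cells are a mouse line of monocytic origin, used as osteoclast precursors and labelled with bone marrow as their source. Cells received RANKL (50 ng/ml), I-BET (500 nM) or both for 4 h, or were left untreated. Chromatin immunoprecipitation followed by sequencing (ChIP-seq) was done with antibodies to BRD2 and BRD3, with 1 library for each antibody and treatment. The 8 peak lists are compared here, and the 4 input libraries have no list in use. With 1 library in each group, no difference between treatments has a replicate check and none was tested. The lists give no read counts, so depth is unknown, and differences in depth, enrichment and binding cannot be told apart. Shares below carry exact (Clopper-Pearson) 95% intervals, which cover counting error only.

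BRD2 and BRD3 belong to the BET family, which binds acetylated lysines on histones through paired bromodomains and recruits transcription machinery to active promoters and enhancers. I-BET compounds block the acetyl-lysine pocket of these domains. RANKL, a TNF-family cytokine, drives macrophage precursors to become osteoclasts. BET proteins are often dense over long stretches of acetylated chromatin near genes that define a cell type, and also sit at the CpG-rich promoters of widely expressed genes.

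Both kinds of promoter occurred among the I-BET-absent regions. The 6 promoters below were chosen after their values were seen, to show that contrast. Each is the stretch of 250 bases before the gene start, written 5′ to 3′ on the strand of the gene, from RefSeq on build GRCm38.p6, with each CpG in capitals. Lyz1 (lysozyme), Cx3cr1 (the receptor for the chemokine fractalkine) and Ccl3 (a chemokine of macrophages) held 2, 4 and 2 CpG in these bases. Rps6 (a protein of the small ribosomal subunit), Ppan (a ribosome assembly factor) and Ctsd (the lysosomal protease cathepsin D) held 19, 14 and 27.
Lyz1 promoter (chr10:117292869-117293118, minus strand): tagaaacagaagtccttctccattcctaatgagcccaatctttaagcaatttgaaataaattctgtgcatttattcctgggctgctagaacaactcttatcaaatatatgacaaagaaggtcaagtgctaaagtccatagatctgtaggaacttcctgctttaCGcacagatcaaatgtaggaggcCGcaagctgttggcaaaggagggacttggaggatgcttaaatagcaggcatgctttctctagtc
Cx3cr1 promoter (chr9:120068297-120068546, minus strand): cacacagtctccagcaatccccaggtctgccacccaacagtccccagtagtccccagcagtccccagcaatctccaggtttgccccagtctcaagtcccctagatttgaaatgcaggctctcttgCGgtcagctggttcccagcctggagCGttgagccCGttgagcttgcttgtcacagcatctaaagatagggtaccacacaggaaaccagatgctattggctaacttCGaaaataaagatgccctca
Ccl3 promoter (chr11:83649379-83649628, minus strand): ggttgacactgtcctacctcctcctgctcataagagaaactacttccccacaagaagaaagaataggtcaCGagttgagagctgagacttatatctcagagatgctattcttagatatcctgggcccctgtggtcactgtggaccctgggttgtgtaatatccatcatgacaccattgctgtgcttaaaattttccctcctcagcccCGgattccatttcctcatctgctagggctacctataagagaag
Rps6 promoter (chr4:86857368-86857617, minus strand): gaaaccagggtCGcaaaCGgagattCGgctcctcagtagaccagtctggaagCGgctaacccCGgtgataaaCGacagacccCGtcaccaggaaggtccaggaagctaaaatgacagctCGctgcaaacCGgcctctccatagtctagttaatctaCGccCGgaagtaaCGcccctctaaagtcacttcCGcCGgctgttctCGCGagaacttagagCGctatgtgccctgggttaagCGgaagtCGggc
Ppan promoter (chr9:20887925-20888174, plus strand): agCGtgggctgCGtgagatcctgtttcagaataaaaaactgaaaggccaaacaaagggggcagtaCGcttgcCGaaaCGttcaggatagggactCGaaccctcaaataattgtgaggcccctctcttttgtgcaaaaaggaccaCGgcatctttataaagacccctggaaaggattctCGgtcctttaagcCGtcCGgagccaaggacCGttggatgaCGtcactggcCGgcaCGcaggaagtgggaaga
Ctsd promoter (chr7:142387828-142388077, minus strand): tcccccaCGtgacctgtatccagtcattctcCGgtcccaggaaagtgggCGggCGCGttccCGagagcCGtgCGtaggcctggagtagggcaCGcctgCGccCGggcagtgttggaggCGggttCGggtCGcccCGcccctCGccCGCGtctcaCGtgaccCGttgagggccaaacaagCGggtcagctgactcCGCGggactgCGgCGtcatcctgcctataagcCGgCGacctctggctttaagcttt

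The second set shows letters that match short motifs, in capitals with 25 bases on either side where the promoter table reaches that far, and was also chosen after the values were seen. Nfkbia encodes IκBα, the inhibitor that holds NF-κB in the cytoplasm, and Mcl1 encodes an anti-apoptotic protein of the BCL2 family. Their windows match an NF-κB motif on the opposite strand. The Zeb2 window lies at a start inside the gene record and matches the AP-1 letters TGANTCA. Ndufa11, a subunit of respiratory complex I, matches an NRF1 motif, and the histone gene H3c3 matches the CCAAT box letters GCCAATCA. A match describes the letters and does not show that a factor bound there.
Nfkbia promoter window (chr12:55492648-55492701, minus strand): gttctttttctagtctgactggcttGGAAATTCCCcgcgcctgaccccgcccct
Mcl1 promoter window (chr3:95658668-95658720, plus strand): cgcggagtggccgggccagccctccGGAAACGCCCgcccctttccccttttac
Zeb2 promoter window (chr2:45110435-45110491, minus strand): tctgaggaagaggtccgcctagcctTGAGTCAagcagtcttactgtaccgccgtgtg
Ndufa11 promoter window (chr17:56717677-56717736, plus strand): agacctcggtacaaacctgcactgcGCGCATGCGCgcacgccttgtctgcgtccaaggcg
H3c3 promoter window (chr13:23745630-23745687, minus strand): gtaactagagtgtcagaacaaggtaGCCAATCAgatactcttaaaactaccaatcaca

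The I-BET-absent regions were wide. Their median width was 1097 bp (quartiles 626 to 2042), against 670 bp (quartiles 542.5 to 948.5) for the 1727 untreated regions called under all 4 treatments and 712 bp for the whole list. Of the 561, 142 (25.3%) were wider than 2 kb, against 61 of 1727 (3.53%) of those called under all 4 treatments. Of the 107 untreated regions wider than 3 kb, 68 were I-BET-absent and 23 were called under all 4 treatments. The widest quartile of the untreated list, from 1118 to 10614 bp, held 276 I-BET-absent regions among 917 (30.1%, 27.1 to 33.2). In the quartile from 533 to 712 bp there were 67 of 916 (7.31%). The narrowest quartile, from 303 to 532 bp, held 105 of 921 (11.4%). Width comes from the library that chose the regions and is given as a description.

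At the median the same stretches were about as wide after RANKL. The RANKL counterparts had a median width of 1094 bp for I-BET-absent regions and 680 bp for regions called under all 4 treatments. The median ratio of RANKL to untreated width was 0.990 (quartiles 0.799 to 1.23) and 1.02 (0.882 to 1.17) in these sets. Single regions thus varied, and 288 of 561 I-BET-absent regions were narrower after RANKL. Each ratio uses the RANKL region with the largest overlap. The authors' deposited score of a region, had similar medians in both sets. Its untreated median was 77 at I-BET-absent regions and 79.7 at regions called under all 4 treatments. In the I-BET lists as a whole regions were fewer and narrower. The BRD3 lists held 3840 regions after RANKL, 2232 after I-BET and 2842 after both, against 3668 in untreated cells, with median widths of 679, 640 and 571 bp against 712 bp. The widest BRD3 region after I-BET alone was 2701 bp, against 10614 bp in untreated cells.

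**Figure D1:**
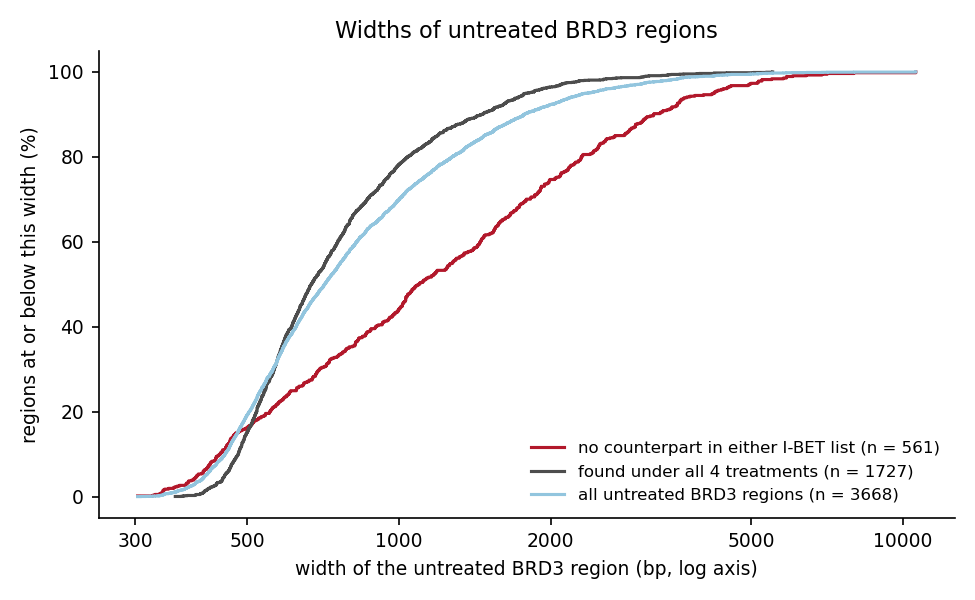
Cumulative share of untreated BRD3 regions (%, vertical axis) at or below a width in bp (horizontal axis, log scale), for the 561 I-BET-absent regions, the 1727 regions called under all 4 treatments and all 3668 regions. The curve of the I-BET-absent regions runs to the right of the others over most of the range, with a median of 1097 bp against 670 bp for regions called under all 4 treatments.

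Distances from the I-BET-absent regions to BRD3 calls made with I-BET come from the lists that chose the regions. They are given as a description, without a comparison set. The nearest region of either I-BET list lay at a median distance of 124006 bp, none lay within 1 kb, 32 lay within 10 kb and 248 within 100 kb. Just inside the rule was the region over the histone genes H2ac7, H2bc7 and H3c4 (chr13:23573813-23577444), which had an I-BET-list region 1479 bp away. The next were a region of 399 bp near Dus3l, 1944 bp away, and a region of 2812 bp near Junb (chr8:84980207-84983018), 2291 bp away. Just outside the rule, a region of 2859 bp at Arhgdib (chr6:136938825-136941683) shared 254 bp with an I-BET-list region. A further 478 untreated regions with a RANKL counterpart had a counterpart in only 1 of the 2 I-BET lists. Of these, 406 were missing under I-BET alone and 72 were missing only when both agents were present.

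Position was not used by the rule. I-BET-absent regions were at gene ends less often, and between genes more often, than regions called under all 4 treatments. Gene-end regions were those with a midpoint 1 kb or less from the start or end of a protein-coding gene record. They made up 230 of 561 I-BET-absent regions (41.0%, 36.9 to 45.2), against 1338 of 1727 regions called under all 4 treatments (77.5%, 75.4 to 79.4) and 66.3% of the whole list. Elsewhere within genes lay 151 (26.9%), against 253 (14.6%) of those called under all 4 treatments and 19.3% of the list. Between genes lay 180 (32.1%, 28.2 to 36.1), against 136 (7.87%, 6.65 to 9.25) and 14.4% of the list. The intervals do not overlap for gene ends or for intergenic positions. Only protein-coding gene records were used for these positions, so a region over a non-coding gene can count as between genes. At any position, 107 of 561 I-BET-absent regions (19.1%) overlapped a long non-coding RNA record, against 244 of 1727 regions called under all 4 treatments (14.1%).

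The same contrast appeared in distances to annotated gene starts, which the promoter table gives for every chromosome in use but 18. The median distance was 4502 bp over 543 I-BET-absent regions and 132 bp over 1686 regions called under all 4 treatments. More than 10 kb from any start lay 229 I-BET-absent regions (42.2%) and 264 regions called under all 4 treatments (15.7%). Regions away from genes were also the wide ones. In the widest quartile 20.3% of I-BET-absent regions were at a gene end, against 70.5% of those called under all 4 treatments. In the 3 narrower quartiles these shares were 55.2% against 70.8%, 77.6% against 83.0% and 56.6% against 80.9%. Read the other way, I-BET-absent regions made up 135 of the 234 widest-quartile regions between genes (57.7%), 85 of 235 in gene bodies (36.2%) and 56 of 448 at gene ends. The BRD3 lists with I-BET held a larger part of gene-end regions, with 76.4% after I-BET and 73.7% after both agents, against 66.3% in untreated cells.

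**Figure D2:**
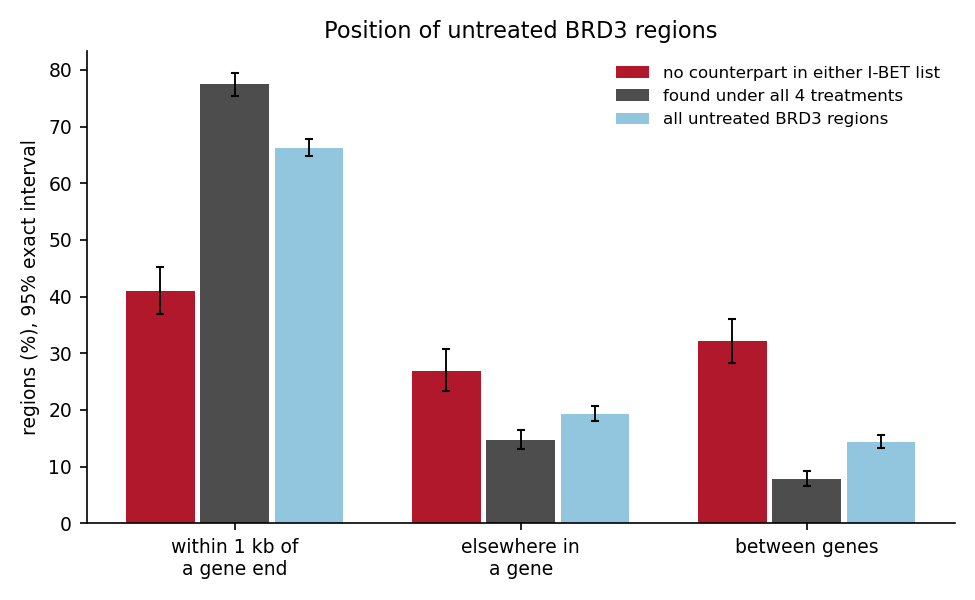
Share of regions (%, vertical axis, from 0) within 1 kb of a gene end, elsewhere in a gene or between genes, for I-BET-absent regions, regions called under all 4 treatments and all untreated BRD3 regions. Genes are protein-coding records only. Bars are shares and lines exact 95% intervals, and the I-BET-absent bars are lowest at gene ends (41.0%) and highest between genes (32.1%).

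BRD2 libraries were not used by the rule either. BRD2 was called at many I-BET-absent regions after RANKL and after I-BET alone, but at few with both agents. After RANKL, 196 of 561 (34.9%, 31.0 to 39.0) overlapped a BRD2 region, against 288 of 1727 regions called under all 4 treatments (16.7%, 14.9 to 18.5) and 20.1% of all untreated BRD3 regions. After I-BET alone, 155 (27.6%, 23.97 to 31.5) did so, against 167 (9.67%, 8.32 to 11.2) and 13.1% of all. With both agents 34 (6.06%, 4.23 to 8.37) did so, against 49 (2.84%, 2.11 to 3.73) and 3.60% of all. In untreated cells 81 (14.4%, 11.6 to 17.6) did so, against 110 (6.37%, 5.26 to 7.63) and 8.53% of all. A BRD2 region in any of the 4 lists was present at 266 I-BET-absent regions (47.4%) and at 400 regions called under all 4 treatments (23.2%), and at 28.4% of the whole list. With only the top 50% of every list by score the differences from regions called under all 4 treatments were much smaller, with 12.8% against 10.04% after RANKL and 7.98% against 3.72% after I-BET, and in untreated cells the order turned round by -0.955 percentage points.

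**Figure D3:**
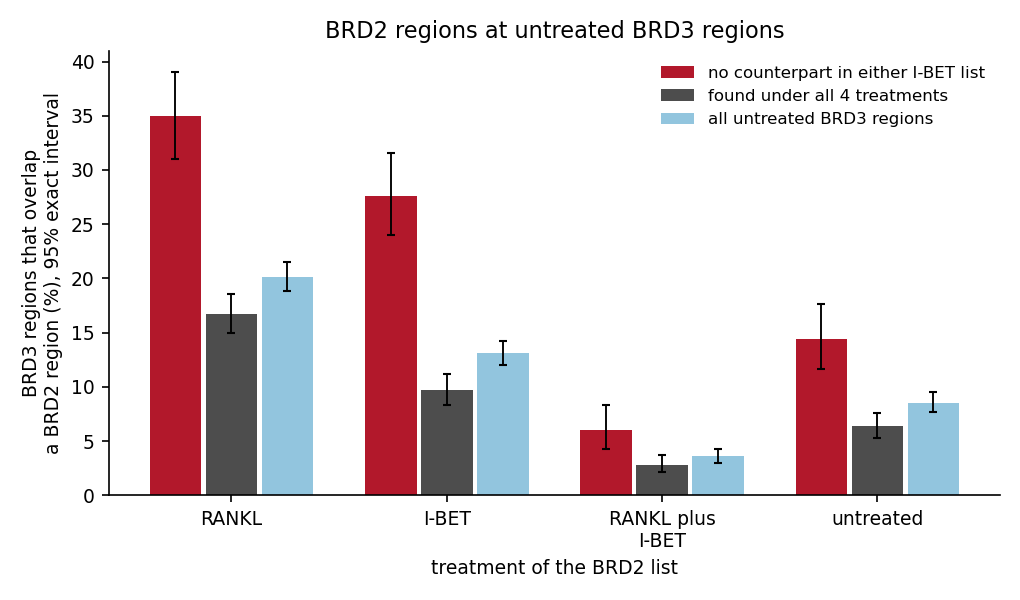
Share of untreated BRD3 regions (%, vertical axis, from 0) that overlap a BRD2 region of each of the 4 BRD2 lists, for I-BET-absent regions, regions called under all 4 treatments and all untreated BRD3 regions. Bars are shares and lines exact 95% intervals; the I-BET-absent bar is the highest in each BRD2 list, at 34.9% after RANKL and 27.6% after I-BET.

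The BRD2 lists differ in length, with 1716 regions after RANKL, 1067 after I-BET and 245 after both, against 578 in untreated cells, so shares of different BRD2 lists cannot be read as a change in binding. Read against its own length, each BRD2 list placed a similar part on I-BET-absent regions, with 197 of 1716 regions (11.5%) after RANKL, 157 of 1067 (14.7%) after I-BET and 34 of 245 (13.9%) after both, against 84 of 578 (14.5%) in untreated cells. At individual loci, 105 of the 561 (18.7%) had a BRD2 region after I-BET and none in untreated cells, 31 had the opposite pattern and 50 had both. Among regions called under all 4 treatments, 117 of 1727 (6.77%) had a BRD2 region after I-BET and none in untreated cells, and among all untreated regions 334 of 3668 (9.11%) did. For the agents together against RANKL alone, 8 I-BET-absent regions had BRD2 only with both agents, 170 only after RANKL and 26 in both, against 42, 649 and 90 of all 3668. The first of these shares was 1.43% against 1.15%, close to the whole list.

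Wide regions meet more BRD2 regions, so the comparison was repeated within quartiles of BRD3 width. After RANKL the share with BRD2 was higher at I-BET-absent regions in every quartile, from narrow to wide 6.67%, 25.4%, 35.4% and 47.8%, against 3.05%, 11.6%, 22.6% and 34.4% at regions called under all 4 treatments. After I-BET it was 4.76%, 14.9%, 28.3% and 39.1%, against 1.52%, 5.23%, 11.9% and 24.8%. In the widest quartile the intervals of the 2 sets do not overlap in either list. They were 41.8 to 53.9 against 29.1 to 40.1 after RANKL, and 33.3 to 45.2 against 20.1 to 30.1 after I-BET. The widest quartile gave the opposite order for the other 2 lists, with 6.88% against 10.3% with both agents and 17.0% against 18.9% in untreated cells, and there the intervals overlap. Within that quartile the I-BET-absent regions were still wider, with a median of 2084.5 bp against 1540.5 bp, and the part of that difference in the BRD2 shares was not tested. Among I-BET-absent regions the share with BRD2 after RANKL was 43.9% between genes, 35.1% in gene bodies and 27.8% at gene ends. Among all untreated BRD3 regions the order was the same, with 25.2%, 20.9% and 18.8%. Among regions called under all 4 treatments the shares were 14.7%, 16.6% and 16.9%. These shares are not matched for width, and 135 of the 180 I-BET-absent regions between genes were in the widest quartile.

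**Figure D4:**
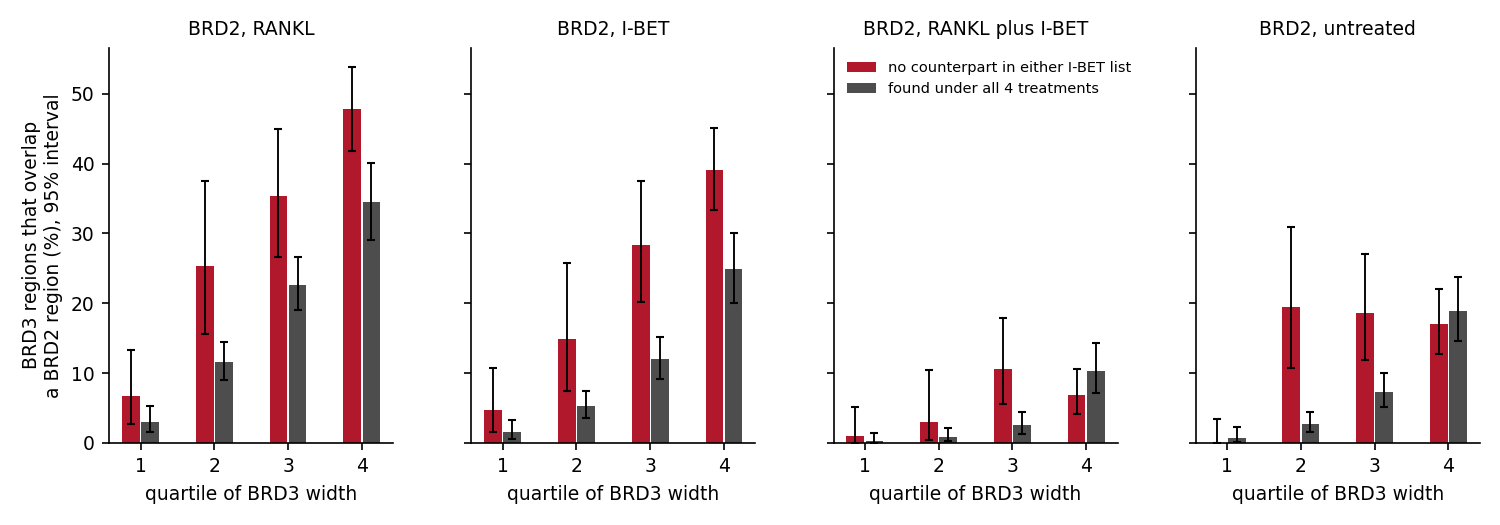
Share of BRD3 regions (%, vertical axis, from 0) that overlap a BRD2 region, by quartile of untreated BRD3 width (1 narrowest, 4 widest), in a panel for each BRD2 list. Bars are I-BET-absent regions and regions called under all 4 treatments, with exact 95% intervals. After RANKL and after I-BET the I-BET-absent bar is higher in each quartile, and in the widest quartile it is lower for both agents together (6.88% against 10.3%) and for untreated cells (17.0% against 18.9%).

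The widest I-BET-absent region lay over the start of Zeb2, a zinc-finger repressor listed here among negative regulators of osteoclast formation (chr2:45107905-45118518, 10614 bp). After RANKL 2 BRD3 regions covered 6155 bp there. The BRD2 region with the longest overlap was 3448 bp after RANKL and 3227 bp after I-BET, against 3316 bp in untreated cells, and no BRD2 region was called with both agents. The locus thus had BRD2 calls of similar width in 3 lists. Pid1 (7997 bp in the gene body) had BRD2 regions of 4860 bp after RANKL and 1506 bp after I-BET, and none in the other lists. Apobec1, a cytidine deaminase that edits RNA (7078 bp), had BRD2 after RANKL only, at 6437 bp. Ahnak, which encodes a very large scaffold protein (6047 bp), had BRD2 regions of 2475 bp after RANKL and 1035 bp after I-BET. Spred1, an inhibitor of Ras and ERK signalling (5493 bp), had them after RANKL (3863 bp) and with both agents (1132 bp).

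A region of 6435 bp overlapped Neat1 (chr19:5843728-5850162), the long non-coding RNA that scaffolds nuclear paraspeckles; its nearest protein-coding gene is Frmd8. BRD2 regions there measured 5661 bp after RANKL and 7939 bp after I-BET, and none was called with both agents or in untreated cells. Tnrc18 (chr5:142816800-142823710, 6911 bp) had BRD2 in every list, at 7294 bp after RANKL, 6627 bp after I-BET and 1586 bp with both, against 3241 bp in untreated cells. The remaining regions among the 10 widest lay between protein-coding genes. The nearest protein-coding genes were Dner (5879 bp), Dppa3 (5874 bp) and Lpp (5795 bp). The midpoint of the last lay 67034 bp from Lpp, but 27 bp from the start of the long non-coding RNA gene A230028O05Rik, which the region overlapped.

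In all, 13 I-BET-absent regions (2.32%) had BRD2 in all 4 lists, against 11 regions called under all 4 treatments (0.637%) and 32 of all 3668 (0.872%). The 10 widest of these were at or near Tnrc18, Lpp, Cd180, Trmo, Mcl1, Luc7l2, Ctss, Cbx8, Smg5 and Eif4g2. At Cd180, a Toll-like receptor homologue of B cells and macrophages (chr13:102693037-102695603, 2567 bp), BRD2 regions measured 2495 bp after RANKL, 2697 bp after I-BET and 2064 bp with both, against 2439 bp in untreated cells. At Mcl1 (chr3:95658305-95659782, 1478 bp) they measured 1249, 1697 and 1069 bp, against 1180 bp in untreated cells. At both genes BRD2 was called under every treatment, in regions of more than 1 kb. The region near Ctss, which encodes the lysosomal protease cathepsin S, had its midpoint 5615 bp from the gene and its edge 2631 bp from the nearest I-BET-list BRD3 region.

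Some I-BET-absent regions lay near each other, in a share close to that of the untreated list. Within 12500 bp of another region of their own set were 70 of 561 (interval 9.86% to 15.5%), against 89 of 1727 regions called under all 4 treatments (5.15%, 4.16 to 6.30) and 409 of all 3668 (11.2%, 10.1 to 12.2). The share moves with the number of regions in a set. Below the widest quartile no I-BET-absent region had such a neighbour in its own quartile and set, and the difference from regions called under all 4 treatments turned to -1.52, -2.17 and -0.839 percentage points there. They formed 8 groups of 3 or more, against 3 groups among those called under all 4 treatments and 25 over the whole list. The groups are named here after their values were seen. The group between Hmga2 and Msrb3 (chr10:120616138-120647659) held 4 regions over 31.5 kb, of which 3 overlapped BRD2 after RANKL and 2 after I-BET. The group near Lpp (chr16:25039844-25062509) held 3 regions covering 13786 bp, with BRD2 at 2 of them after RANKL, after I-BET and in untreated cells, and at 1 with both agents. A group of 4 lay near Tmco5 (chr2:116972368-116991227), and groups of 3 lay at Vps8, Ctsd, Pebp4, Rbpj and the histone genes H1f3, H3c6 and H3c4. The 3 regions near Rbpj, the DNA-binding factor of Notch signalling (chr5:53539184-53547323), were covered by a single RANKL region of 10554 bp, so they share 1 RANKL call. A separate region inside Rbpj was called under all 4 treatments.

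**Figure D5:**
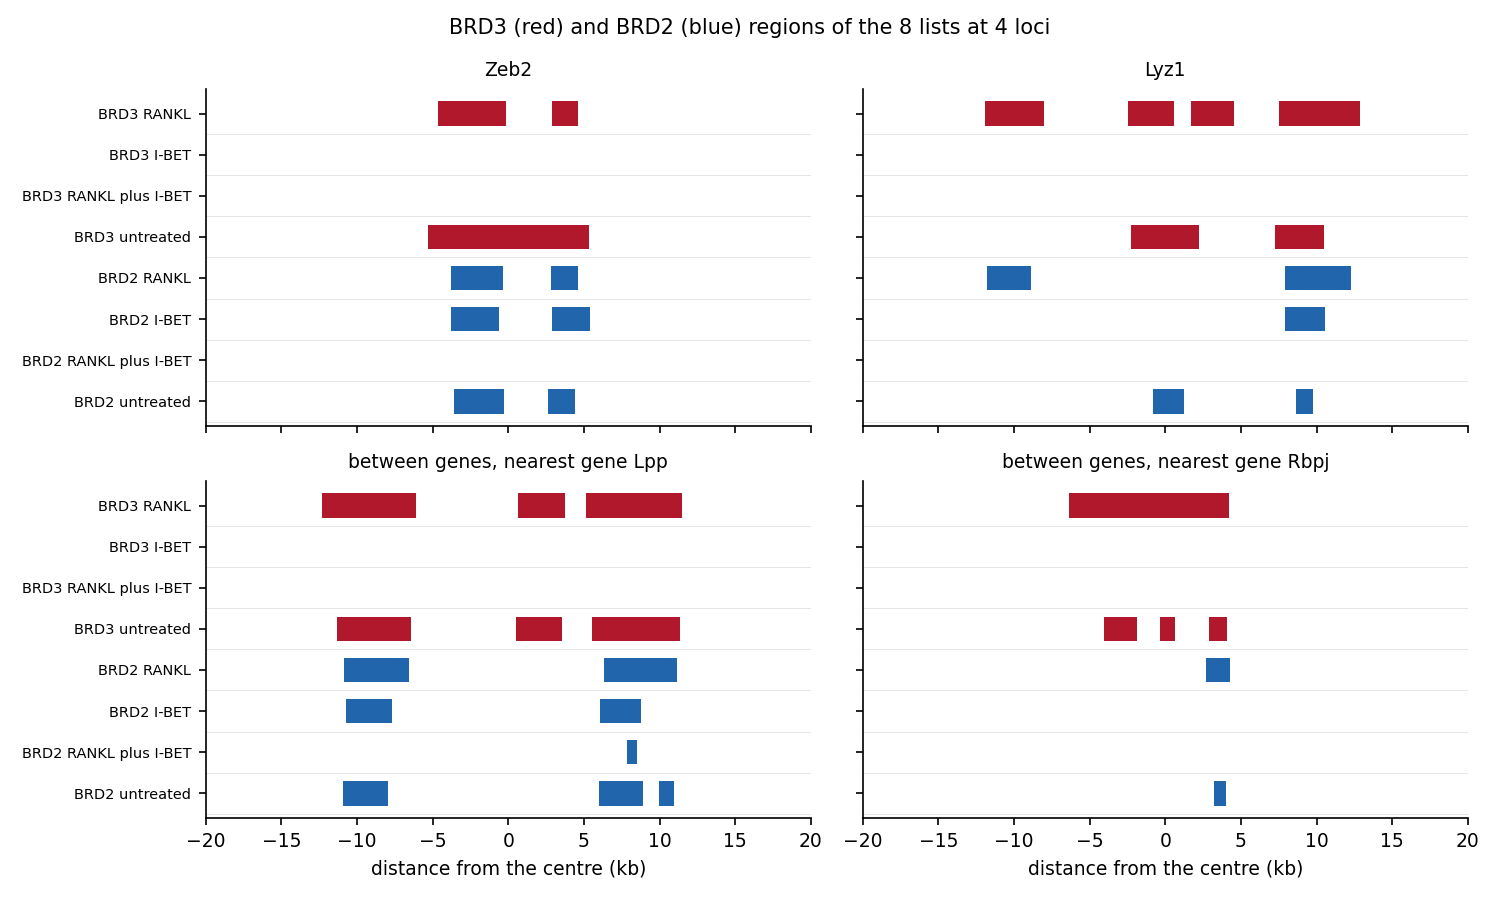
Regions of the 8 lists (rows; BRD3 in red, BRD2 in blue) within 20 kb of the centre of 4 loci, with distance in kb on the horizontal axis. Both I-BET rows of BRD3 are empty in all 4 windows, while BRD2 after I-BET has regions at Zeb2, beside Lyz1 and near Lpp.

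The I-BET-absent regions included several genes that define macrophages. A gene counted as bound when a region overlapped the window within 1 kb of either end of its record. Of 3065 genes bound by BRD3 in untreated cells, 301 (9.82%) had an I-BET-absent region and 55.3% had a region called under all 4 treatments. Of the 40 macrophage genes listed, 13 were bound, 5 of them at an I-BET-absent region (38.5%, 13.9 to 68.4) and 1, Cd68, at a region called under all 4 treatments. None of 30 marker genes of other cell types was bound. The interval for the macrophage genes is wide. Its lower bound lies above the background share of 9.82%, as do those of histone genes (17.0%) and cytosolic ribosomal protein genes (10.4%). The histone interval counts genes, and its 14 genes share only 8 regions. Those genes are not independent counts, so that interval is too narrow to be set against the background. The gene lists were chosen with earlier results of these data known, and the background is not matched for region width. Whether macrophage genes are over-represented was not tested.

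The 5 macrophage genes were Lyz1, Csf1r, Msr1, Cx3cr1 and Fcgr3. The region over the start of Lyz1 (chr10:117290390-117294863) was 4474 bp wide in untreated cells and met 2 RANKL regions totalling 5861 bp. Lyz1 has a close copy, Lyz2, beside it, so reads from the shared sequence may have been placed at either gene. Its only BRD2 region was the untreated one, of 2066 bp. Csf1r encodes the receptor for the macrophage growth factor CSF1. Its region (chr18:61105566-61108660) was 3294 bp after RANKL and 3095 bp in untreated cells, with BRD2 regions of 2721 bp after RANKL and 3313 bp after I-BET only. Msr1 encodes a scavenger receptor. Its region (chr8:39641734-39644842) was 3766 bp after RANKL and 3109 bp in untreated cells, with BRD2 regions of 3852 bp after RANKL and 4027 bp after I-BET only. At Csf1r and Msr1 BRD2 was thus called under I-BET alone, where BRD3 was not. Cx3cr1 (chr9:120068186-120070472) was 2906 bp after RANKL and 2287 bp in untreated cells, with BRD2 after RANKL only, at 1474 bp. Fcgr3, a low-affinity receptor for IgG, had a region of 484 bp after RANKL and 481 bp in untreated cells, and no BRD2.

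Other macrophage genes were outside the set, as was Trem2 of the osteoclast list. The start of Spi1, which encodes the macrophage lineage factor PU.1, and the region at Cebpa, a myeloid transcription factor, had a RANKL counterpart and a counterpart in 1 of the 2 I-BET lists. The bound region at Ly86 had the same pattern. Bound regions at Laptm5, Mpeg1 and Ncf4, at the start of Ctss and at Trem2 had no RANKL counterpart.

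Among genes of RANKL signalling and its response the numbers were small. Of 8 bound genes of RANK and NF-κB signalling, 2 were at I-BET-absent regions. These were Nfkbia (chr12:55491288-55493111, 1102 bp after RANKL and 1824 bp in untreated cells) and Tab3, which encodes an adaptor of the kinase TAK1 (358 bp after RANKL and 400 bp in untreated cells). Neither had a BRD2 region. Of 5 bound osteoclast genes it was Tyrobp, the signalling adaptor DAP12 (1573 bp after RANKL and 1533 bp in untreated cells, no BRD2). Of 7 bound immediate-early and stress genes it was Klf10, a zinc-finger factor induced by TGF-β (507 bp after RANKL and 2681 bp in untreated cells, no BRD2). Mcl1 is on the same list and has an I-BET-absent region at a start inside its record. That region lay outside the 1 kb windows at the ends of the record, so Mcl1 was not counted as bound. Junb itself is not in the set, since its own region had a counterpart in 1 of the 2 I-BET lists. Of 3 bound inflammatory genes, Ccl3 and Ccl4 shared 1 region, 2362 bp after RANKL and 1408 bp in untreated cells, with no BRD2. The midpoint of that region lay 322 bp from the start of Ccl3, and the Ccl4 record in use overlaps the Ccl3 record. Of 2 bound negative regulators it was Zeb2. None of 3 bound interferon genes and none of 7 bound genes of the BET proteins and elongation was included.

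Histone and ribosomal protein genes were the largest groups by count. Of 48 bound replication-dependent histone genes, 14 were at I-BET-absent regions (29.2%, 17.0 to 44.1), but these were only 8 regions, since neighbouring histone genes share them. Widths were 1069 to 3632 bp, with BRD2 at 2 of the 8 after RANKL, 0 after I-BET and 0 with both agents, against 1 in untreated cells. Another 17 of the 48 were at regions called under all 4 treatments. Histone genes are near-identical copies, so the placement of reads among them is uncertain. Of 35 bound genes of cytosolic ribosomal proteins, 8 were at I-BET-absent regions (22.9%, 10.4 to 40.1), each with its own region of 422 to 1318 bp. Examples are Rps6, Rps7, Rpl23 and Rpl32, and 5 of the 8 had a BRD2 region in some list. Ribosomal protein genes have many processed copies, which makes read placement uncertain there too.

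Housekeeping groups that lay below or near the background share of 9.82% were the MYC and ribosome assembly genes with 1 of 19, the genes of oxidative phosphorylation with 2 of 39 and those of mitochondrial ribosomal proteins with 1 of 23. These were Ppan, the complex I subunits Ndufa11 and Ndufs7, and Mrpl48. Their intervals reach 26.03%, 17.3% and 21.9%, which include the background. Of 9 bound proteasome genes 2 were included (Psma3 and Psmd2), of 6 bound genes of actin, adhesion and leukocyte signalling 2 (Actg1, cytoplasmic actin, and Sirpa, an inhibitory receptor of myeloid cells), and of 8 bound lipid and lysosome genes 2 (Ctsd and Nr1h3, the oxysterol receptor LXRα). The region counted for Nr1h3 was 607 bp wide and had its midpoint 4 bp from the start of the gene Acp2. BRD2 regions there measured 818 bp after RANKL, 687 bp after I-BET and 457 bp with both, against 649 bp in untreated cells.

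The 10 I-BET-absent regions with the highest deposited score in untreated cells, from 243 to 306, varied in width and position and were at or near Pdf, Rdm1, Tmco5, Numa1, Kctd18, Zmpste24, Wwp2, Ppp1r26, Lyz1 and Cog4. They included wide regions such as those at Lyz1 (4474 bp) and near Tmco5 (3087 bp). The highest score belonged to a region of 470 bp at Pdf, the mitochondrial peptide deformylase (chr8:107048227-107048696), with 624 bp after RANKL and no BRD2. Cog4, a subunit of a Golgi tethering complex, had a region of 543 bp with BRD2 regions of 1276 bp after RANKL, 1130 bp after I-BET and 538 bp with both, and none in untreated cells. The share of untreated regions that were I-BET-absent was 14.1%, 14.9%, 13.1% and 19.1% from the lowest to the highest quartile of score.

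Promoter sequences were compared over the 250 RefSeq promoters that I-BET-absent regions overlapped and the 1609 at regions called under all 4 treatments. These windows run from 250 bases before to 50 after a gene start, and 198 of the 561 regions overlapped any. The ratio of observed to expected CpG had a median of 0.838 at I-BET-absent regions and 0.883 at regions called under all 4 treatments, against 0.567 over all 21263 promoters. It was above 0.6 in 214 of 250 (85.6%, 80.6 to 89.7), in 1499 of 1609 (93.2%, 91.8 to 94.3) and in 47.6% of all promoters. Lyz1 (0.136), Ccl3 (0.175) and Cx3cr1 (0.228), printed above, are among the exceptions. Rps6 (0.968), Ctsd (0.972) and Ppan (0.943) belong to the CpG-rich majority. They lie above the median of the I-BET-absent set and just below its upper quartile of 0.974.

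Of 9 motifs searched on both strands, the palindromic NRF1 motif differed most in share between I-BET-absent regions and those called under all 4 treatments. It was in 2.80% of promoters at I-BET-absent regions (1.13 to 5.68), against 10.7% at regions called under all 4 treatments (9.22 to 12.3) and 1.33% of all promoters. At regions with a counterpart in RANKL and 1 of the 2 I-BET lists it was in 4.75% (2.79 to 7.49), an interval that overlaps that of the I-BET-absent regions, and over all untreated BRD3 regions in 7.69%. CCAAT box letters (GCCAATCA) were in 1.60% against 4.41%, and in 4.73% of all. The letters of PU.1 (GAGGAAGT) were in 3.60% against 2.3%, and in 3.13% of all. Those of AP-1 (TGANTCA) were in 3.60% against 2.86%, and in 6.99% of all. ETS letters (CCGGAAGT) were in 9.60% against 8.76% and E-box letters (CACGTG) in 10.8% against 10.9%, with 5.15% and 7.84% of all. C/EBP letters (TTGCNNCAA) were in 1.2% against 1.24%, the IRF motif in 1.60% against 2.18% and the NF-κB motif in 0.800% against 0.994%, with 1.79%, 3.35% and 1.60% of all. Promoters of 1 gene can overlap each other, and most I-BET-absent regions lie away from promoters, so these shares describe the minority at gene starts.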

How the data were processed

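ChIP-seq for BRD2 and BRD3 gave 8 deposited region lists, each from 1 library. The submitters' processing notes name build mm10/GRCm38 with FastQC, MACS2 2.1.1.20160309 and Bowtie2 2.3.4.1, and no settings were known. Peak names in the lists show that most regions join 1 peak from each of 3 sets, numbered 3, 5 and 7 with no explanation. The deposited score is the authors' value for a region, and 3 times it is a whole number for 99.0% of untreated BRD3 regions, of which 98.6% join 3 peaks. The lists used carry no read counts, so library depths are unknown. Deposited starts were taken as counted from 0 and are printed counted from 1.

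Lists were compared by overlap of at least 1 bp, in Python 3.11.15 with pandas 2.3.3, numpy 2.4.6, scipy 1.17.1 and matplotlib 3.10.9. The overlap function was tested on simulated data. Gene records came from a RefSeq table of GRCm38.p6 without strand or exons (21887 protein-coding genes), and gene starts and promoters from RefSeq with strand, except on chromosome 18, which holds 18 of the 561 regions. The 17 gene lists (723 genes, 3 without a match) and the set of regions were chosen with earlier results of these data known.

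Named genes were up to 30 list genes at an I-BET-absent region in order of list and score, the nearest genes of the 10 widest, the 10 highest-scoring and up to 10 regions with BRD2 in all 4 lists, 19 fixed genes, and the regions nearest to the limit of the rule. Genes of ribosomal proteins, oxidative phosphorylation and the proteasome, Neat1 and the groups of neighbours were named after their values were seen. No test was made, since each group has 1 library. Alternatives were another overlap, a 1 kb margin, the top 50% of the lists by score, equal lengths, RANKL regions as the start, width quartiles and other gene windows.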

Additional observations from a re-analysis of the deposited data

Results flagged for a closer look

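At 105 of the 561 I-BET-absent regions BRD2 was called after I-BET and not in untreated cells, against 334 of all 3668 untreated BRD3 regions (9.11%). The BRD3 calls at these regions run the other way by the rule that chose them, so only the BRD2 calls are an observation. At 8 regions BRD2 was called with both agents and not after RANKL alone, a share of 1.43% that is close to the 1.15% of the whole list. Each rests on 1 library in each group, and the difference was not tested. The BRD2 list after I-BET was also the longer of its pair (1067 regions, against 578 in untreated cells), and the list with both agents the shorter (245, against 1716 after RANKL).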

How the results depend on the processing

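No paired analysis was possible because each group has 1 library, and for the same reason no library could be left out. With only the top 50% of every list by score there were 351 I-BET-absent regions, with the top 50% of the untreated list alone 296, and with BRD3 lists of equal length 270. With the top 50% of every list the shares with BRD2 were 12.8% after RANKL, 7.98% after I-BET and 1.99% with both, against 3.13% in untreated cells; 56.4% were at gene ends, 21.7% between genes, 5.41% within 12500 bp of another, and 16.3% of bound genes were at such a region. By width quartile (narrow to wide), BRD2 was at 6.67%, 25.4%, 35.4% and 47.8% after RANKL, 4.76%, 14.9%, 28.3% and 39.1% after I-BET, and 0.952%, 2.99%, 10.6% and 6.88% with both, against 0%, 19.4%, 18.6% and 17.0% in untreated cells. Gene ends took 55.2%, 77.6%, 56.6% and 20.3%, and intergenic positions 16.2%, 7.46%, 20.4% and 48.9%. Grouping within 12500 bp, counting only neighbours in the same quartile, took 0%, 0%, 0% and 20.3%. With equal lengths grouping was 9.63% and bound genes 8.11%. Bound genes were 6.76% and 14.3% in the quartile from 533 to 712 bp and the widest, 11.1% with a 5 kb window and 11.8% with any overlap of the gene. With a gene end taken as 5 kb, 53.1% were at gene ends and 26.6% between genes.

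Relative to regions called under all 4 treatments, the higher BRD2 share after RANKL and after I-BET kept its direction in 10 of 10 alternatives, and the positions in 11 of 11. These alternatives are not independent checks. The 1 kb margin changed nothing, since no I-BET-absent region had an I-BET-list region that near. The other overlap and the RANKL start gave differences close to the main ones, and the width quartiles are parts of the main set. With the top 50% of every list the BRD2 differences were only 2.78 points after RANKL and 4.26 after I-BET, in place of 18.3 and 17.96. The BRD2 difference in untreated cells turned to -0.955 percentage points with the top 50% of every list, and to -0.761 and -1.85 in the narrowest and widest quartiles. That with both agents turned to -3.38 in the widest quartile. Grouping turned to -1.52, -2.17 and -0.839 in the 3 narrower quartiles. Only neighbours in the same quartile were counted there, so the split itself removes neighbours of other widths and cannot show whether grouping depends on width. The cause was not tested. Unknown depth and single libraries limit every comparison.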
